A study of Mus musculus with 9 samples.

Results

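The 9 genes described here encode the core factors of nonsense-mediated decay (NMD) in the mouse. They are Upf1, Upf2, Upf3a, Upf3b, Smg1, Smg5, Smg6, Smg8 and Smg9, chosen by name as the rows of the count table whose Ensembl identifiers carry these symbols, and they were 9 of the 48526 gene rows. The libraries came from neural stem cells (NSCs) of the subependymal zone (SEZ) of adult wild-type C57BL/6 mice, expanded as neurospheres in vitro. At 0 h the cells were undifferentiated, and at 1 h and 6 h differentiation had been induced by taking away EGF, the growth factor that keeps them dividing, while FGF was still supplied to the adherent cells. Each time point had 3 replicates, with numbers shared between time points, and RNA was sequenced as mRNA from whole cultures. The labels do not say whether the replicates came from separate animals or cultures, so the p-values measure only the spread between these libraries.

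NMD is the pathway that recognises an mRNA on which translation stops too early and has it degraded. UPF1, an ATP-dependent RNA helicase, is phosphorylated by the kinase SMG1, whose activity is held in check by SMG8 and SMG9. UPF2 and the paralogues UPF3A and UPF3B join UPF1 to the exon junction complex that splicing leaves on the mRNA, and once phosphorylated UPF1 recruits SMG6, which cuts the mRNA near the stop codon, and SMG5, which helps to bring in deadenylation and decapping enzymes. In neural progenitors the pathway is known to influence the choice between division and differentiation, and mutations of human UPF3B cause intellectual disability.

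The promoters of Upf2, Upf3a, Upf3b and Smg5 are shown because these members had the largest falls in mRNA between 0 h and 6 h. All 9 members matched an entry of the RefSeq promoter table (GRCm38.p6), and the 250 bases before the start site are written 5′ to 3′ on the strand of the gene, with motif letters in capitals. Upf2 is read from chr2:5951219-5951468 on the plus strand, Upf3a from chr8:13785365-13785614 on the plus strand, Upf3b from chrX:37110323-37110572 on the minus strand and Smg5 from chr3:88336010-88336259 on the plus strand.
Upf2: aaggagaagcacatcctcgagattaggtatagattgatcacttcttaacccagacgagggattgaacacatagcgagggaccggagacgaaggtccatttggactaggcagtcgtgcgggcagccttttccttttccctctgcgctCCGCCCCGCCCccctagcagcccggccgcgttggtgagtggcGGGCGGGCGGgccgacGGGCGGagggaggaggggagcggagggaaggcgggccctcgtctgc
Upf3a: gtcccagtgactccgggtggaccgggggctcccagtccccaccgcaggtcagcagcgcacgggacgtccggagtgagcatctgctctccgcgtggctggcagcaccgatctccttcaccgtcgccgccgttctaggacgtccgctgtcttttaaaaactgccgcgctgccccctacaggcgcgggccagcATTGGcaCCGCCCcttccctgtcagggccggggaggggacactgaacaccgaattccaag
Upf3b: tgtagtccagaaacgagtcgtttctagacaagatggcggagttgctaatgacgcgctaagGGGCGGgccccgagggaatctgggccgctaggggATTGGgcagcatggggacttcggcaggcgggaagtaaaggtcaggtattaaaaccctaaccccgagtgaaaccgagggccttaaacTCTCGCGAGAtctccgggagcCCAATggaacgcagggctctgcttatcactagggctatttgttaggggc
Smg5: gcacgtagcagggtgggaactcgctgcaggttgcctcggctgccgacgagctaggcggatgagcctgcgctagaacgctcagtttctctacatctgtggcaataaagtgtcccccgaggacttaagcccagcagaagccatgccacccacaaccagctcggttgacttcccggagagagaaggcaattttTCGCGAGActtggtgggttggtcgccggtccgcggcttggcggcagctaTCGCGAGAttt
The letters searched on both strands were GGGCGG (the GC box bound by Sp1), CCAAT (the CCAAT box), CGCATGC (a stretch of the NRF1 site), TCGCGAGA (the CGCG element) and CCGGAAG (an ETS core), and they were picked after the members' promoters had been read. Matches may overlap, as they do in the run of GC boxes of Upf2 and in the palindrome of Upf3b.

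The CGCG element was present in 2 of the 9 members, Upf3b and Smg5, against 0.858% of the 32851 promoters in the table. Each carried 2 matches, which overlap in Upf3b and lie apart in Smg5. The GC box was present in 7 of the 9 members, against 32.7% of all promoters, and was most frequent in Upf2 and Smg1, with 5 matches each. Smg5 and Smg8 held no GC box in this window. The CCAAT box was found in Upf3a, Upf3b, Smg1 and Smg8, which is 4 of 9 against 33.8% of all promoters. The NRF1 letters were found in Upf1 and Smg9, 2 of 9 against 3.02%, and the ETS core in Smg8 alone, 1 of 9 against 6.91%. The members' windows held between 12 and 41 CpG dinucleotides, and the median over all promoters was 6. Upf1 had the most and Smg8 the fewest. A match of letters describes the sequence and does not show that a factor binds there. Since the letters were picked from these same promoters, the shares are a description and not a test. The promoters they are set beside were not matched for CpG content.

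All 9 members are protein-coding genes of GENCODE M21 on GRCm38, the build that the authors used. Upf1 (chr8:70331525-70353278) and Upf3a (chr8:13785615-13799193) lie on the same chromosome at a distance, as do Smg1 (chr7:118131308-118243670) and Smg9 (chr7:24399619-24422778), and Smg6 (chr11:74925823-75164448) and Smg8 (chr11:87077732-87086774). Upf2 (chr2:5951469-6056703), Smg5 (chr3:88336260-88362338) and Upf3b (chrX:37091678-37110322) are alone on theirs. Smg8 was the most compact, with 4 merged exon blocks and 3218 bp of exon, and Smg1 the largest, with 65 blocks, 23984 bp of exon and a longest transcript of 15557 bp. Exons of Upf1 share 68 bp with Cers1 and those of Smg6 share 126 bp with Srr on the opposite strand, 1.47% and 1.49% of their exon length. The strand setting of the counting is not given in the sources used here, so reads in these stretches could belong to either gene. GENCODE annotates transcripts of the NMD class for Smg1, Smg5 and Smg6, 3 of 9 members against 27.4% of the 14216 tested protein-coding genes. Transcripts with a retained intron are annotated for 5 of 9 members (Upf3a, Smg1, Smg5, Smg6 and Smg9) against 56.1%. The counts are per gene and do not separate these transcripts.

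Total counts ranged from 65871454 to 105592597 per library, and each member had between 2142 and 24016 counts in a library. All 11 NSC markers (among them Nes, Sox2 and Egfr) had a mean of at least 1 CPM (counts scaled to the library size) over all libraries of the series. None of the 7 leukocyte markers did, with C1qa and Itgam at 0 in every library. The 5 oligodendrocyte lineage markers that were detected summed with the rest of their list to between 1696 and 2294 CPM at 0 h and between 2170 and 2517 CPM at 6 h. The summed ranges of this list, and of the neuron and astrocyte lists, overlapped between time points. In bulk RNA, fewer cells of a type and less mRNA per cell cannot be told apart. The part of these lineage markers in the results was not tested. Replicate 3 at 1 h stood apart for long mRNAs. In this library the 288 genes with a transcript of at least 10000 bp and at least 10 CPM had a median log2 difference of -0.33 from the 0 h library of the same number, while in the other libraries at 1 h and 6 h this value was close to 0, from -0.07 upwards. Smg1 is the member of this length, and its log2 fold changes are given with and without that library.

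Per length of transcript, Upf1, Upf3b and Smg5 formed the upper tier of the members at every time point. Divided by the merged exon length, the mean level at 0 h was 26.2 ± 2.63 CPM per kb (SD, n = 3) for Upf1, 21.8 ± 2.70 for Upf3b and 20.6 ± 0.828 for Smg5. The libraries of Upf1 and Upf3b overlapped, as did those of Upf3b and Smg5. After a gap in which no library fell came Upf2 (10.8 ± 0.819 CPM per kb), Smg8 (10.4 ± 0.825) and Smg1 (10.3 ± 0.384), whose ranges overlapped from each to the next. Upf3a (9.52 ± 0.436) and Smg9 (9.03 ± 0.870) also overlapped with each other and in part with that group. The highest library of Upf3a (9.91) was above the lowest of Upf2 (9.89) and of Smg8 (9.53). Smg6 was lowest with 5.83 ± 0.193 CPM per kb, below every library of the other members. With the longest annotated transcript as the length, Upf3b and Smg5 stood above Upf1 at 0 h with 34.2 and 32.2 CPM per kb, and Smg6 was again lowest. By this length Upf3a (15.1) and Smg9 (14.9) stood above Upf2 (11.4) and Smg8 (10.4) at 0 h. The plot of length-scaled levels shows the gap between the upper 3 members and the rest at each time point.

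**Figure D1:**
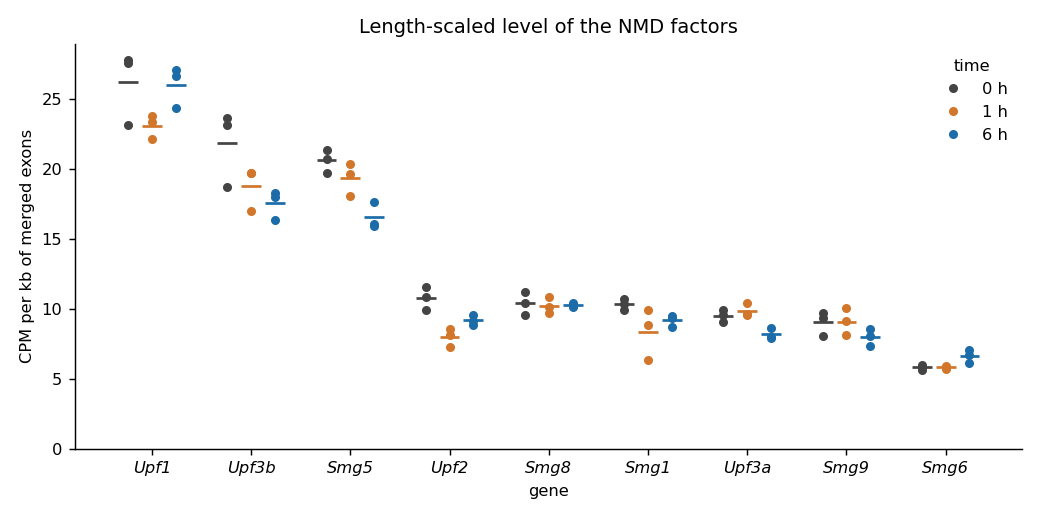
Level of each NMD factor in CPM per kb of merged exons (linear axis from 0), with 1 point per library, coloured by time point, and a bar for the mean of 3 libraries. Upf1, Upf3b and Smg5 lie above the other 6 members, and Smg6 is lowest, with a mean of 5.83 at 0 h.

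Among the UPF genes, Upf2 showed the clearest shift with time. In replicates 1, 2 and 3 it measured 59.5, 63.1 and 54.2 CPM at 0 h, 44.4, 46.8 and 39.7 CPM at 1 h, and 48.5, 52.2 and 50.1 CPM at 6 h. The 3 libraries at 1 h lay below all others, and those at 6 h lay between the other time points without overlap. Upf3b, the more active of the paralogues in NMD, measured 92.6, 94.4 and 74.9 CPM at 0 h, 78.9, 78.8 and 67.9 CPM at 1 h, and 73.2, 71.9 and 65.4 CPM at 6 h. Replicate 3 was lowest at each time point, and within every replicate number the value was highest at 0 h and lowest at 6 h. Upf3a, the weaker activator, which can also oppose NMD, measured 58.1, 56.2 and 53.1 CPM at 0 h, 56.4, 55.9 and 61.0 CPM at 1 h, and 46.2, 50.6 and 46.8 CPM at 6 h. Its 6 h libraries were below all of the 0 h and 1 h libraries. Upf1 measured 128, 107 and 127 CPM at 0 h, 110, 102 and 108 CPM at 1 h, and 125, 113 and 123 CPM at 6 h, so that 0 h and 6 h overlapped and each replicate was lowest at 1 h.

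Of the effectors, Smg5 measured 137, 144 and 149 CPM at 0 h, 125, 137 and 141 CPM at 1 h, and 112, 111 and 123 CPM at 6 h. Its 6 h libraries were below all others. Smg6, the endonuclease, measured 47.6, 50.9 and 49.3 CPM at 0 h, 48.0, 50.2 and 49.5 CPM at 1 h, and 51.6, 56.8 and 59.5 CPM at 6 h, and here the 6 h libraries were above all others. Within the kinase complex, Smg1 measured 256, 248 and 238 CPM at 0 h, 237, 213 and 152 CPM at 1 h, and 228, 208 and 224 CPM at 6 h. The lowest value belonged to the 1 h library that was low in long mRNAs. Among the genes of its regulators, Smg8 measured 33.6, 36.0 and 30.7 CPM at 0 h, 34.8, 32.6 and 31.3 CPM at 1 h, and 32.6, 33.5 and 32.9 CPM at 6 h, with overlap throughout. Smg9 measured 35.9, 29.8 and 34.6 CPM at 0 h, 33.8, 30.0 and 37.2 CPM at 1 h, and 31.7, 27.2 and 29.8 CPM at 6 h, where the groups overlapped but each replicate number was lowest at 6 h.

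**Figure D2:**
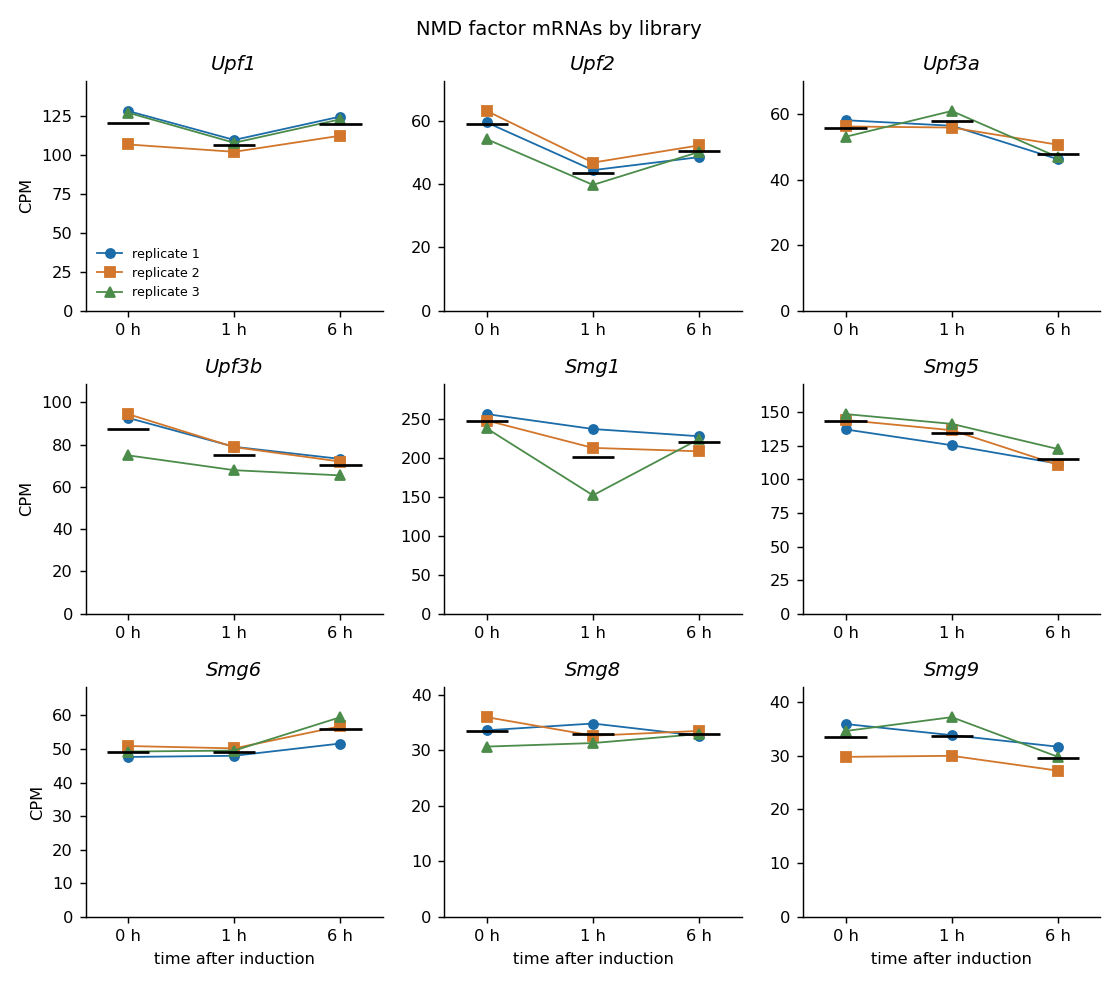
CPM of the 9 NMD factors in each library (linear axes from 0, a separate scale per gene) by time after induction, with lines joining libraries of the same replicate number and black bars for the mean of 3. Upf2 dips at 1 h in all replicates, Smg5 and Upf3a are lowest at 6 h, Smg6 is highest at 6 h, and the 1 h library of replicate 3 falls to 152 CPM for Smg1.

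The comparison of 1 h with 0 h gives the earliest differences after EGF was taken away. Among the NMD factors the clearest was a lower level of Upf2. No library came from cells kept in EGF until 1 h or 6 h. Effects of EGF loss, of handling and of time therefore cannot be told apart. Without the replicate number as a block, 0 of 9 members passed an adjusted p of 0.05 in the quasi-likelihood test of edgeR with Benjamini-Hochberg adjustment over 18858 genes, where 0.0424% of all tested genes did. One member, Upf2, had an unadjusted p below that value, and DESeq2 without the block called 1 member, again Upf2, against 0.525% of all genes. With the block, in which libraries of the same number are compared with each other, edgeR called 2 of 9 members, both lower, against 2.14% of all genes called lower and 1.36% called higher. Upf2 fell by 0.43 on the log2 scale (SE 0.05, edgeR with the block, adjusted p = 0.0007), which is a change of -25.9%, in 3 of 3 replicates. The paired log2 differences of Upf2 were -0.42, -0.43 and -0.45, nearly the same in each replicate. Upf3b fell by 0.21 (SE 0.05, edgeR with the block, adjusted p = 0.0374), a change of -13.7%, also in 3 of 3 replicates.

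The other 7 members did not pass the edgeR test with the block at 1 h. With DESeq2 and the block, Upf1 (DESeq2 adjusted p = 0.0454) and Smg1 (DESeq2 adjusted p = 0.0213) also passed, both lower. That fit called 561 of 18858 tested genes lower and 368 higher. Smg1, compared within replicate numbers, differed by -0.32 on the log2 scale (SE 0.10, edgeR, adjusted p = 0.0967). Its paired differences were -0.11, -0.22 and -0.65, and without the third 1 h library the value was -0.14. Upf1 had -0.18 (SE 0.05, edgeR with the block, adjusted p = 0.0739), with each replicate lower. Smg5 had -0.09, and Upf3a, Smg6, Smg8 and Smg9 had values between -0.02 and 0.05. By the CPM alone, Upf2 and Smg1 were the members whose 1 h libraries were all below the 0 h libraries, as was true of 4.93% of all tested genes. For Smg1 the gap was narrow, with 237.0 CPM in replicate 1 of 1 h and 237.8 CPM in replicate 3 of 0 h. With the trends of GC content and transcript length removed from each library, the block fit also called Upf1 (-0.17, edgeR adjusted p = 0.0293) and Smg1 (-0.23, edgeR adjusted p = 0.0164) lower, 4 of 9 in all against 3.73% of all genes. Upf2 passed in all 9 block fits that left out a single library, with log2 fold changes from -0.46 to -0.39, while Upf3b passed in 3 of the 9. Upf3b lost the call without any single library of 0 h, without replicates 1 or 2 of 1 h, or without replicate 1 of 6 h.

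Between 0 h and 6 h, the NMD factors moved in both directions when libraries were compared within replicate numbers, with Smg5, both UPF3 paralogues, Upf2 and Smg9 lower and Smg6 higher. Without the block 0 of 9 members passed (edgeR, Benjamini-Hochberg), against 2.42% of all tested genes, although 5 members had an unadjusted p below 0.05. The lowest adjusted p was 0.0679, for Smg5. DESeq2 without the block called 2 members, Smg5 and Upf3a, both lower, against 9.24% of all genes. With the block edgeR called 5 members lower and 1 higher, where 17.5% of all tested genes were lower and 17.4% higher. The median log2 fold change of the 9 members was -0.18, and that of all tested genes was close to 0.

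Smg5 fell by 0.32 on the log2 scale (SE 0.05, edgeR with the block, adjusted p = 0.0002), a change of -19.8%. Upf3b fell by 0.31 (SE 0.05, edgeR with the block, adjusted p = 0.0004), a change of -19.3%. Both were lower in 3 of 3 replicates and passed in all 9 block fits that left out a single library. Upf2 fell by 0.22 (edgeR with the block, adjusted p = 0.0061) and Upf3a by 0.22 (adjusted p = 0.0118). These are changes of -14.4% and -14.2%, and they passed in 7 and 6 of the 9 single-library fits. Upf2 lost the call without replicate 2 of 0 h or of 6 h. Upf3a lost it without replicates 1 or 2 of 0 h or replicate 1 of 6 h. Smg9 fell by 0.18 (edgeR with the block, adjusted p = 0.0334) and passed in 3 of the 9. Those were the fits without a 1 h library, and the call was lost when any single library of 0 h or 6 h was left out.

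Smg6 rose by 0.18 on the log2 scale (SE 0.05, edgeR with the block, adjusted p = 0.0140), a change of 13.6%, and was the only member higher at 6 h. Its paired differences were 0.12, 0.16 and 0.27, and it passed in 6 of the 9 single-library fits, and lost the call without replicates 2 or 3 of 0 h or replicate 3 of 6 h. The effector genes Smg5 and Smg6 moved in opposite directions. Upf1 (-0.01) and Smg8 (-0.01) did not pass the test, nor did Smg1 with -0.17 (edgeR with the block, adjusted p = 0.20). Without replicate 3 of 1 h Smg1 was also -0.17 but passed (edgeR with the block, adjusted p = 0.0041). Without replicate 3 of 6 h it was -0.29 (edgeR with the block, adjusted p = 0.0239). That fit kept the 1 h library that was low in long mRNAs. The paired differences of Smg1 were -0.17, -0.25 and -0.09, and none reached -0.29. Over all fits that left out a single library Smg1 ranged from -0.29 to -0.09. By the CPM alone, the 6 h libraries of Upf2, Upf3a, Upf3b, Smg1 and Smg5 were all below the 0 h libraries, as for 12.1% of all tested genes, and those of Smg6 were above them, as for 12.8%. Removing the GC and length trends added a call for Upf1 (-0.11, edgeR with the block, adjusted p = 0.0464), which made 7 of 9 members against 37.0% of all genes.

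**Figure D3:**
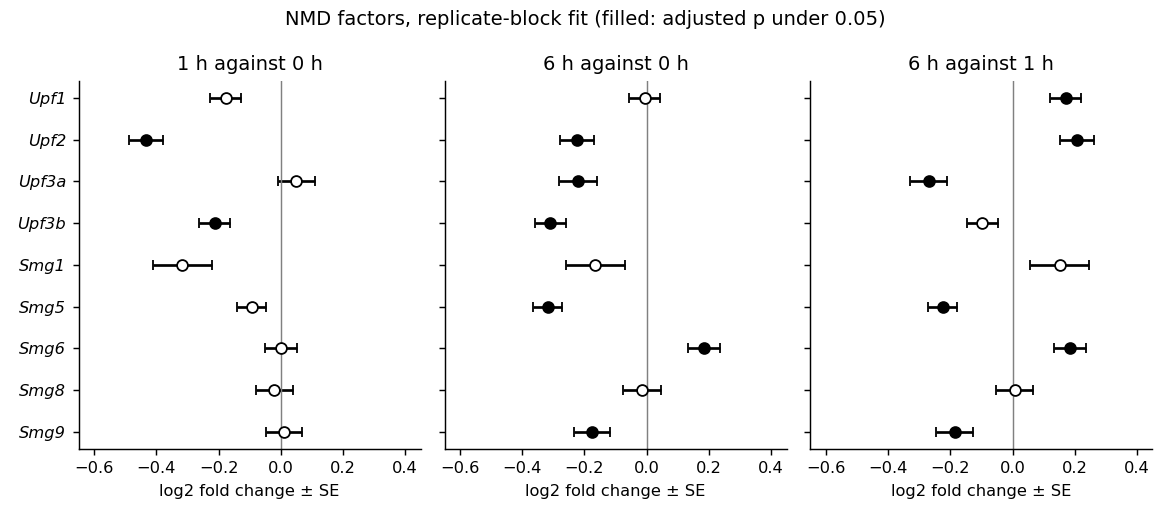
Log2 fold change of each NMD factor with its standard error (x axis) in the edgeR fit with the replicate block, for the 3 comparisons of time points with 3 libraries each. Filled points passed an adjusted p of 0.05. Upf2 is lower at 1 h by 0.43 and partly back at 6 h, Smg5 and Upf3b are lowest against 0 h at 6 h, and Smg6 is the member that lies above 0 there.

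The comparison of 6 h with 1 h shares its libraries with the other comparisons and shows which members moved after the first hour. Without the block 0 of 9 members passed (edgeR, Benjamini-Hochberg), against 2.14% of all tested genes, with 4 at an unadjusted p below 0.05, and DESeq2 called Upf3a and Smg5 lower, against 8.99% of all genes. With the block 3 members were called higher and 3 lower, where 18.0% and 17.5% of all tested genes were. Upf2 rose by 0.21 (edgeR with the block, adjusted p = 0.0098), so that it regained part of the level lost at 1 h. Upf1 rose by 0.17 (edgeR with the block, adjusted p = 0.0164) and Smg6 by 0.18 (adjusted p = 0.0136). The calls for Upf1 and Smg6 were lost when the GC and length trends were removed, with log2 fold changes of 0.06 and 0.11, which left 4 of 9 members called against 38.8% of all genes.

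Upf3a fell by 0.27 between 1 h and 6 h (SE 0.06, edgeR with the block, adjusted p = 0.0036). Smg5 fell by 0.22 (SE 0.05, edgeR with the block, adjusted p = 0.0025), and both passed in all 9 fits that left out a single library. Smg9 fell by 0.19 (edgeR with the block, adjusted p = 0.0253) and passed in 5 of the 9. It lost the call without replicates 2 or 3 of 1 h or replicates 1 or 3 of 6 h. Upf3b with -0.10, Smg8 with 0.01 and Smg1 with 0.15 did not pass. For Smg1 the paired differences were -0.06, -0.03 and 0.56, and without 1 h replicate 3 the value was -0.02 with the block. By the CPM alone, the 6 h libraries of Upf1, Upf2 and Smg6 were all above those of 1 h (12.1% of all tested genes) and those of Upf3a and Smg5 all below (10%). Whether the timing differed between members was not tested.

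Upf3a and Upf3b are paralogues that compete for UPF2, and their balance was read within each library as the log2 ratio of Upf3b to Upf3a counts. The ratio is of counts, without correction for length. It was 0.67, 0.75 and 0.50 at 0 h, 0.48, 0.50 and 0.15 at 1 h, and 0.66, 0.51 and 0.48 at 6 h. Each replicate was lower at 1 h than at 0 h, and the difference of the means was -0.26 (exact permutation test, two-sided, p = 0.1, adjusted p = 0.3 over 3 comparisons). Without replicate 3 at 1 h, the library that stood apart, it was -0.15. That value keeps replicate 3 of 0 h, the lowest ratio at 0 h, and so breaks the pairing. Within replicate numbers 1, 2 and 3 the differences were -0.19, -0.25 and -0.34. With 3 against 3 libraries 0.1 is the smallest p that this test can give. The difference was -0.09 between 6 h and 0 h (exact permutation p = 0.4) and 0.17 between 6 h and 1 h (exact permutation p = 0.3). Without replicate 3 at 1 h, but with replicate 3 at 6 h kept, the latter was 0.06. Within replicate numbers 1, 2 and 3 the differences were -0.01, -0.24 and -0.02 between 6 h and 0 h. Between 6 h and 1 h they were 0.18, 0.01 and 0.33. Without single libraries the difference between 6 h and 0 h ranged from -0.16 without 0 h replicate 3 to -0.03 without 0 h replicate 2.

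The likeness of the time courses was described by the Pearson correlation of log2 CPM over the 9 libraries after the mean of each replicate number had been taken away. The libraries share depth and time point between genes, and the values are a description. Upf3a and Smg9 were each most like the other (r = 0.93), as were Upf3b and Smg5 (r = 0.88) and Upf2 and Smg1 (r = 0.82). The value for Upf2 and Smg1 includes replicate 3 of 1 h, where the CPM of both was lowest, and was not computed without it. Upf1 was most like Upf2 (r = 0.78). Smg8 had no close partner, its highest value being 0.33 with Upf3b. Smg6 was the member least like Smg9 (r = -0.93), Smg5 (-0.88), Upf3a (-0.83) and Upf3b (-0.61), and its own closest member was Upf1 (0.39). Of 9684 other genes with a mean of at least 10 CPM, those most like the mean profile of the members were Csnk2a2, a catalytic subunit of casein kinase 2 (r = 0.994), Tgs1, which methylates the caps of small nuclear RNAs (r = 0.988), and Gbp9, a guanylate-binding protein gene (r = 0.983).

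The other genes of the pathway were read from lists of 74 genes in 6 groups, of which 73 were tested, since Exosc6 had too few counts. At 1 h, 3 of these 73 were higher and 2 lower with the block, against 1.36% and 2.14% of all tested genes, and 1 was called without it. At 6 h against 0 h, 7 were higher and 31 lower with the block, against 17.4% and 17.5%, and 3 were higher and 1 lower without it. Their median log2 fold change was -0.10, where that of all tested genes was close to 0. The same comparison without 1 h replicate 3 gave 9 higher and 34 lower.

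Of the partners of the surveillance complex 2 of 9 were higher and 2 lower at 6 h with the block, shares near the 17.4% and 17.5% of all tested genes. Mov10, an RNA helicase that acts with UPF1, rose by 0.71, and Dhx34, a helicase that promotes the activation of UPF1, by 0.44. Both also passed without the block (edgeR adjusted p = 0.0203 and 0.0339). Ruvbl2 and Gnl2 fell by 0.26 each with the block. Of the exon junction complex 4 of 10 genes were lower and none higher, with Rbm8a (-0.30), which encodes the core protein Y14, and Magohb (-0.25), its partner, followed by Rnps1 (-0.18) and Pnn (-0.18).

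Of the termination and cap-binding genes 6 of 8 were lower and 1 higher at 6 h with the block. Over all tested genes 17.5% were lower and 17.4% higher, for this group and the following ones. Etf1, which encodes the release factor eRF1 that recognises stop codons, fell by 0.47 and also passed without the block (edgeR adjusted p = 0.0363). Gspt1, for its partner eRF3, fell by 0.24, Pabpc1, for the cytoplasmic poly(A) binding protein, by 0.26 and Ncbp2, for a subunit of the nuclear cap-binding complex, by 0.23. In the group of deadenylation, decapping and 5′ to 3′ decay 6 of 18 were lower and 1 higher. The decapping enzyme gene Dcp2 fell by 0.41, and the deadenylase genes Cnot6 and Cnot7 by 0.26 and 0.23, while Edc4, a scaffold of decapping, rose by 0.25. Of the exosome and SKI complex 6 of 13 were lower and none higher, led by the nuclease gene Dis3 (-0.48) and by Exosc2 (-0.30), Exosc1 (-0.25) and Exosc8 (-0.24).

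**Figure D4:**
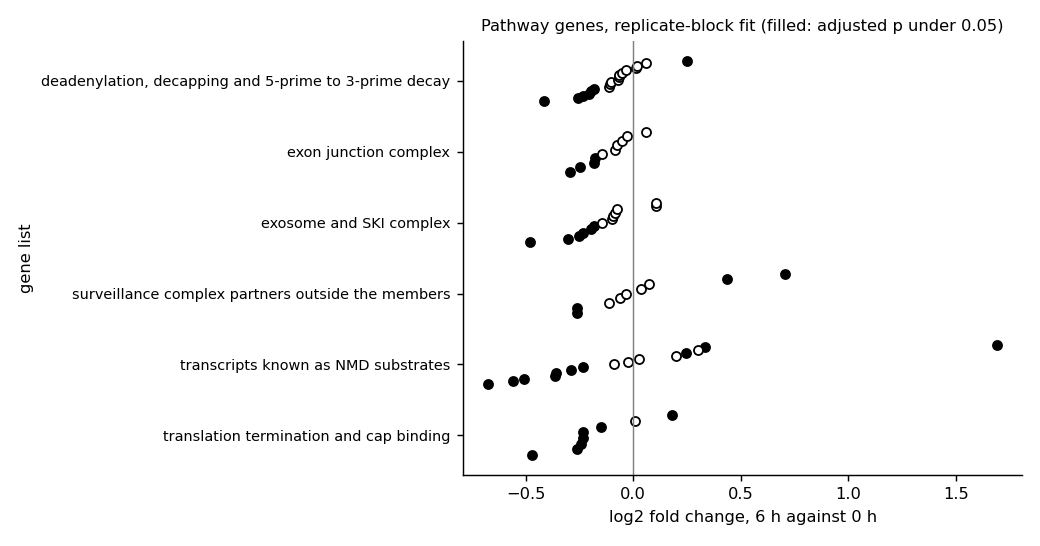
Log2 fold change at 6 h against 0 h (x axis, edgeR with the replicate block) of the genes of 6 pathway lists, 1 point per gene, stacked by value within a list, with filled points for an adjusted p under 0.05. In every list except the surveillance partners and the substrates at most 1 gene is called higher, and the rightmost point is Gadd45b.

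Of 15 transcripts known to be degraded by NMD, 3 were higher and 7 lower at 6 h against 0 h in the block fit, with a median log2 fold change of -0.09, where 17.4% and 17.5% of all tested genes were higher and lower. Against 1 h, 1 was higher and 9 lower, with a median of -0.24, where 18.0% and 17.5% of all tested genes were. The ones lower against 0 h were host transcripts of small nucleolar RNAs, among them Snhg1 (-0.67), Snhg12 (-0.56) and Snhg5 (-0.51). These are spliced non-coding RNAs with short reading frames. Gadd45b, a stress response gene and a well-known target of the pathway, was higher by 1.69 with the block. It was higher by 2.42 at 1 h, the one gene of the lists that passed there without the block (edgeR adjusted p = 0.0120). Levels of these mRNAs also depend on their transcription, so they are not a readout of NMD activity, which the series did not measure.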

How the data were processed

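The 9 libraries were mRNA from adult SEZ NSC cultures with 3 replicates of each time point (0 h, 1 h, 6 h), grouped by the labels. The authors deposited raw counts of paired-end reads per Ensembl gene, aligned to mm10 (GRCm38) with STAR 2.5.3a, without normalisation. The strand setting of the counting is not given in the sources used here. No 2 libraries agreed within sampling noise (chi-square per degree of freedom of at least 13.6). GENCODE M21 held 48144 of the 48526 identifiers.

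Counts were tested in R 4.3.3 with edgeR 4.0.16: filterByExpr (minimum count 10, minimum total 15), TMM factors (0.97 to 1.02), glmQLFit and glmQLFTest over all 9 libraries with time point as the only factor, Benjamini-Hochberg adjustment over 18858 genes and a threshold of 0.05. The standard error was derived from the F statistic, and log2 CPM used a prior count of 2. DESeq2 1.42.0 and the replicate number as a block were alternatives, with other scalings and filters, fits of the 6 libraries compared, single libraries left out, and GC and length trends removed (splines with 4 degrees of freedom, 99.6% of tested genes). Python 3.11.15 was used for tables and plots.

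The replicate numbers follow the letters B, C and D in the library titles, and the labels do not say what a letter stands for. After removal of the time point means, same-numbered libraries correlated with r of 0.733 to 0.800 (9 pairs), so the numbers pair the samples. Other pairs gave -0.462 to -0.314 (18 pairs). Deviations from a time point mean cancel out, so these negative values follow from the positive ones and add no evidence. The block lowered the biological coefficient of variation from 0.277 to 0.0627. The fits were also run on simulated counts. These were built with replicate effects and spread estimated from these libraries with the block, so they cannot speak for its choice.

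The members, gene lists and tests were chosen with earlier results of these data known. All members are named, and of each list up to 4 genes past the threshold with the largest change at 6 h against 0 h, plus those past it at 1 h without the block.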

Additional observations from a re-analysis of the deposited data

How the results depend on the processing

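The replicate block decided whether members were called. Without it edgeR called 0 members in each comparison under every scaling, filter and choice of libraries tried. Members called lower at 1 h against 0 h numbered 2 with the block, 2 with the block and RLE scaling, 3 with the block and library totals, 1 with the block and only the 6 libraries compared, 4 with the block and GC and length trends removed, 1 with DESeq2 and 4 with DESeq2 and the block. At 6 h against 0 h, 1 member was called higher with the block under each of these settings, and the members called lower numbered 5 with the block, 5 with RLE scaling, 4 with library totals, 6 with only the 6 libraries, 6 with GC and length trends removed, 2 with DESeq2 and 5 with DESeq2 and the block. At 6 h against 1 h, 3 members were higher with the block, with RLE scaling, with library totals and with DESeq2 and the block, and 1 with only the 6 libraries or with GC and length trends removed. The members lower there numbered 3 with the block, 3 with RLE scaling, 2 with library totals, 2 with only the 6 libraries, 3 with GC and length trends removed, 2 with DESeq2 and 3 with DESeq2 and the block. When libraries were left out, the counts ranged from 0 to 3 lower at 1 h, from 0 to 1 higher and 0 to 6 lower at 6 h against 0 h, and from 0 to 3 in each direction at 6 h against 1 h. The fits without the block gave 0 in each, and so did some fits with the block for the higher calls at 6 h against 0 h, where Smg6 was not called. The block fits with single libraries left out, and those with only 6 libraries, were chosen after seeing the data.

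Pathway genes called at 1 h were 1 higher and 0 lower without the block, 2 higher with DESeq2, and 3 higher and 2 lower with the block. At 6 h against 0 h DESeq2 called 9 lower and the block fit 7 higher and 31 lower, against 3 and 1. At 6 h against 1 h DESeq2 called 4 higher and 10 lower and the block fit 10 higher and 35 lower, against 1 and 2.

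Log2 fold changes that turned direction lay within 0.05 of 0, except that of Smg1 at 6 h against 1 h (0.13), which turned without replicate 3 of 1 h. Smg6 at 1 h was -0.0006 and became 0.0059 with DESeq2, 0.0058 with DESeq2 and the block, 0.0057 with RLE scaling, 0.0058 with RLE scaling and the block, 0.0018 with no filter, 0.00032 with a mean of at least 1 CPM, 0.0050 with only the 6 libraries, 0.0052 with these and the block, and 0.038 with GC and length trends removed. Smg9 at 1 h (0.0100) became -0.0045 with library totals, -0.0045 with these and the block, and -0.065 with GC and length trends removed. Upf1 at 6 h against 0 h (-0.0088) became 0.0128 with library totals, 0.0145 with these and the block, 0.0032 with no filter and 0.0032 with a mean of at least 1 CPM. Smg8 became 0.0020 with library totals and 0.0057 with these and the block at 6 h against 0 h, and at 6 h against 1 h -0.0035 with DESeq2, -0.0012 with DESeq2 and the block, -0.0038 with RLE scaling, -0.0012 with RLE scaling and the block, -0.0018 with only the 6 libraries and -0.026 with GC and length trends removed. With libraries left out, the values at 1 h ranged from -0.021 to 0.10 for Upf3a, -0.027 to 0.028 for Smg6, -0.080 to 0.041 for Smg8 and -0.064 to 0.084 for Smg9. At 6 h against 0 h they ranged from -0.084 to 0.043 for Upf1 and -0.076 to 0.044 for Smg8, and at 6 h against 1 h from -0.043 to 0.27 for Smg1 and -0.040 to 0.056 for Smg8. With the longest transcript as length, the 0 h levels were 15.1 CPM per kb for Upf3a, 34.2 for Upf3b, 15.9 for Smg1, 32.2 for Smg5, 8.42 for Smg6 and 14.9 for Smg9. The cause of these shifts was not tested, beyond the lengths themselves. The Upf3b to Upf3a difference kept its direction with a pseudocount, with the block and with each library left out, and its tests could not reach the threshold (with the block, exact sign flips give 0.25 at the least). No member had fewer than 2142 counts in a library.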
